A study of Mus musculus with 35 samples.

Results

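The change in the response of the mouse hippocampus between 8 h and 36 h after pilocarpine-induced status epilepticus (SE, a seizure that does not end on its own) was measured for every gene as the SE effect at 36 h minus the SE effect at 8 h. Each effect was the log2 fold change of SE mice over the control mice assigned to that time. Of 35 samples in the series, 19 were mRNA libraries and 11 of these entered the comparison. They came from 3 SE mice and 3 control mice at 36 h, and from 2 SE mice and 3 control mice at 8 h. Of 43629 gene identifiers in the count table, 16705 had enough counts to be tested. A positive value means that a gene stood higher relative to control at 36 h than at 8 h and can come from a low value at 8 h, a high value at 36 h, or both, so the levels are given beside it.

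All mice were C57BL/6J, male and female, and carried no transgene. SE mice had received pilocarpine, a muscarinic agonist, from a first dose of 350 mg/kg, and control mice vehicle. Each library held the poly(A) RNA of the left hippocampus of 1 mouse. The 36 h controls are labelled as shared by the 36 h and the 120 h SE mice, and their column names do not carry the 36 h label. They were thus not matched to 36 h alone, and 8 h and 36 h have separate controls. In the study's sample table the final pilocarpine dose and the highest seizure stage were higher for the 36 h mice than for the 8 h mice. How hard the mice had seized and how long ago therefore cannot be told apart.

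Seizures drive a first wave of immediate-early genes in hippocampal neurons, among them the transcription factors Fos and Fosb, followed by a later wave of effector genes such as growth factors, neuropeptides and synaptic scaffold proteins. Induction of many of these genes runs through the kinases of the MAP kinase pathway and the factor CREB, and phosphatases of the Dusp family and Sprouty proteins shut the pathway off again. Mitochondria meet the energy need of firing neurons with respiratory chain complexes whose subunits are encoded partly in the nucleus and partly in the mitochondrial genome. Astrocytes make most of the cholesterol of the adult brain, and they and the microglia become reactive in the hours and days after a seizure.

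Total counts ranged from 8503816 to 28465548 per library, with the lowest total in 8 h SE replicate 1. The column names place all 36 h libraries in batch G545, the 8 h SE libraries and 8 h controls 2 and 3 in batch G317, and 8 h control replicate 1 in batch G511. Time and batch therefore cannot be told apart for the levels of a gene, whereas each SE effect was taken against the controls assigned to its time. The first principal component (34.6% of the variance of log2 CPM, counts scaled to a common library size) set all 8 h libraries apart from all 36 h libraries. The second (21.1%) ran from 8 h SE replicate 1 at 82.8 to 8 h controls 2 and 3 at -39.8 and -51.5. By their Xist and Ddx3y counts, all 3 SE mice at 36 h were male and 2 of the 3 controls female, and at 8 h 1 of 2 SE mice and 1 of 3 controls was female. The library of 36 h control replicate 3, from a mouse that is male in the study's table, had 13899 Xist counts and 1 Ddx3y count. Neuronal, astrocyte and oligodendrocyte markers were present in every library, as were those of dentate, CA1 and CA3 cells. Because 8 h control replicate 1 is of a batch with no SE library, the tests were also run without it, and these give the within-batch values below. Medians and sign counts of gene lists are those with all 11 libraries unless stated otherwise. In bulk tissue, fewer cells of a type and less RNA per cell cannot be told apart.

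With all 11 libraries, 4 of 16705 genes stood higher in the 36 h minus 8 h response (0.0239%) and 3 lower (0.018%), at an adjusted p under 0.05 in edgeR's quasi-likelihood test, and 2052 genes had an unadjusted p under 0.05. Within batch the same test called 1045 of 16850 genes higher (6.2%) and 925 lower (5.49%), with 4646 at an unadjusted p under 0.05, and the 7 genes called with all libraries were among the 1970. The count thus rested on 8 h control replicate 1. Leaving out any other single library gave 4 calls (8 h SE replicate 2 or 8 h control replicate 3), 1 call (36 h SE replicate 3 or 36 h control replicate 1) or 0 calls (36 h SE replicates 1 and 2, 36 h controls 2 and 3, 8 h SE replicate 1 and 8 h control replicate 2). With sex as a covariate, by the study's table or by the transcripts, no gene passed either, with 1934 and 1629 at an unadjusted p under 0.05. Other tests on the 11 libraries called more, 151 genes by edgeR's likelihood ratio test and 196 by DESeq2, and both sets included the 7.

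The SE effect of each time was tested in the same fit. It passed for 138 genes at 8 h (0.826%) and for 2 at 36 h (0.012%) with all libraries, and for 2919 (17.3%) and 9 (0.0534%) within batch. These counts rested on single libraries. Without 8 h SE replicate 1 they were 1 at 8 h and 2 at 36 h, and without 36 h SE replicate 3 they were 112 and 75. Leaving out any other library except 8 h SE replicate 2 (152 at 8 h) and 8 h control replicate 1 gave 21 to 55 genes at 8 h and 0 to 6 at 36 h. The 2 genes at 36 h were Gfap and Igfn1. Over all genes tested within batch, the size of the SE effect had a median of 0.12 at 36 h and of 0.32 at 8 h on the log2 scale. Across genes the SE effects of the 2 times were nearly unrelated, with a Spearman coefficient of -0.03 over 16705 genes and of -0.10 within batch, where genes are not independent replicates.

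The sign of the SE effect was opposite at the 2 times for all 7 genes called with all libraries, and for 52.4% of all genes tested. Each of the 7 had the larger effect at 8 h, as did 69.2% of all genes tested. All 7 passed on their own at 8 h, and none passed on its own at 36 h. Within batch, 801 called genes were below control at 8 h and above it at 36 h, 838 were above at 8 h and below at 36 h, 93 were above at both times and 238 below at both. Opposite signs made up 83.2% of these calls, against 55.3% of all 16850 genes. Effects of opposite sign add up in the difference, so genes called for it have opposite signs more often by construction, and the same holds for the 7. Of the 1970 genes, 1893 (96.1%) had the larger effect at 8 h, against 73.8% of all 16850 genes. The median size of the effect over them was 0.12 at 36 h, the same as over all genes, and 0.66 at 8 h, so that in most of them the change of sign was between a clear effect at 8 h and a small one at 36 h. On its own the SE effect passed for 1787 of the 1970 at 8 h, for 6 at 36 h and for 3 at both.

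**Figure D1:**
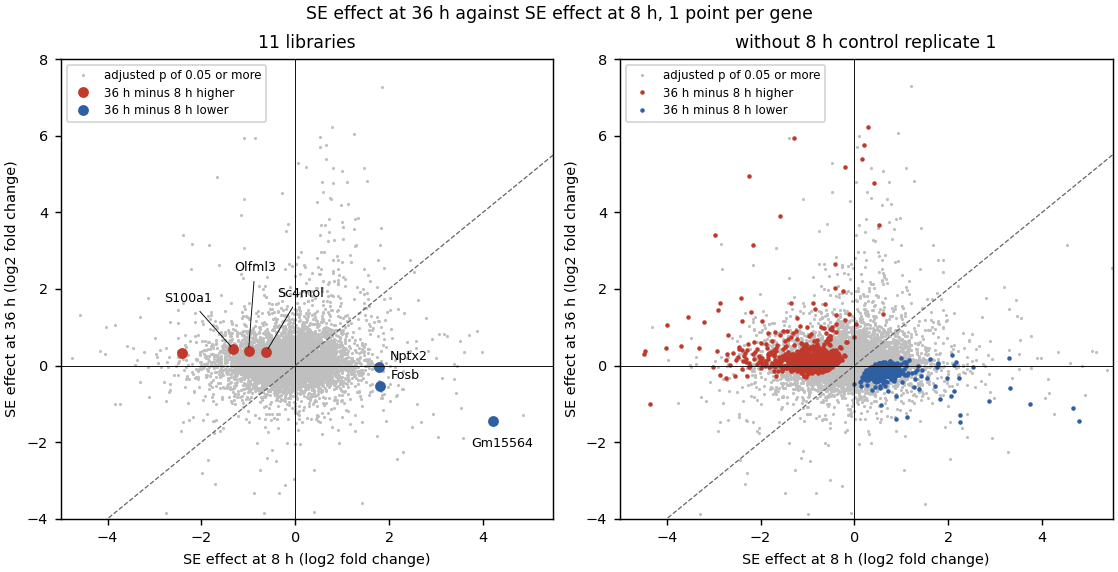
SE effect at 36 h (vertical axis, log2 fold change over the 36 h controls) against SE effect at 8 h (horizontal axis, log2 fold change over the 8 h controls) for each gene tested, with all 11 libraries (left) and without 8 h control replicate 1 (right). Red and blue points are genes called higher and lower in the 36 h minus 8 h response, the dashed line marks equal effects, and 7 genes (left) and 16 genes (right, 3 of them called) lie outside the axes. Most called genes lie farther from 0 on the horizontal axis than on the vertical axis (7 of 7 on the left and 1893 of 1970 on the right), with exceptions such as Igfn1, at 3.68 on the vertical axis. Of all genes tested, 69.2% (left) and 73.8% (right) also lie farther out on the horizontal axis.

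Of the 3 genes lower in the 36 h minus 8 h response, 2 belong to the neuronal activity programme. Nptx2, a pentraxin released at excitatory synapses, where it clusters AMPA receptors (ENSMUSG00000059991, in NCBIM37 on chromosome 5, 145306756 to 145318347), had 36.2, 29.0 and 42.1 CPM in 36 h SE mice against 39.6, 32.9 and 37.6 in 36 h controls, and 68.1 and 54.5 CPM in 8 h SE mice against 17.7, 15.6 and 20.4 in 8 h controls. The groups overlapped at 36 h and were far apart at 8 h, where even 8 h control replicate 1 lay with the other controls. The log2 SE effect was -0.03 ± 0.16 at 36 h and 1.78 ± 0.18 at 8 h, a difference of -1.81 ± 0.24 (standard errors, adjusted p = 0.0375 in edgeR's quasi-likelihood test, and 0.00122 within batch). The controls of the 2 times also differed, those at 36 h standing at the higher level, which cannot be told apart from batch.

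Fosb, a partner of Jun proteins in the AP-1 transcription factor (ENSMUSG00000003545, chromosome 7 from 19888070 to 19895394), had 4.45, 5.37 and 3.95 CPM in 36 h SE mice against 8.00, 6.30 and 5.62 in 36 h controls, and 28.6 and 16.7 CPM in 8 h SE mice against 5.64, 7.22 and 6.37 in 8 h controls. Here the controls of both times were alike, every 8 h SE mouse lay above its controls and every 36 h SE mouse below. The difference was -2.35 ± 0.35 (adjusted p = 0.0375, edgeR's quasi-likelihood test, 0.00285 within batch), from a log2 effect of -0.54 ± 0.24 at 36 h and 1.81 ± 0.26 at 8 h.

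The third gene, Gm15564 (ENSMUSG00000086324, a processed transcript without a coding sequence on chromosome 16 from 35966838 to 35983316), varied widely among mice. It had 2.09, 6.25 and 4.82 CPM in 36 h SE mice against 5.26, 9.35 and 21.4 in 36 h controls, and 11.1 and 17.7 CPM in 8 h SE mice against 1.20, 0.751 and 0.290 in 8 h controls. The SE and control ranges overlapped at 36 h and lay far apart at 8 h. The difference was -5.67 ± 0.82 (adjusted p = 0.0375, edgeR's quasi-likelihood test).

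Higher in the 36 h minus 8 h response was Olfml3, a secreted protein of microglia (ENSMUSG00000027848, chromosome 3 from 103537623 to 103541924). It had 36.1, 30.7 and 32.0 CPM in 36 h SE mice against 24.6, 26.8 and 24.2 in 36 h controls, and 11.1 and 9.50 CPM in 8 h SE mice against 18.3, 20.7 and 22.4 in 8 h controls. SE and control did not overlap at either time, above control at 36 h and below it at 8 h. The difference was 1.38 ± 0.20 (adjusted p = 0.0375, edgeR's quasi-likelihood test), from log2 effects of 0.39 ± 0.13 at 36 h and -1.0 ± 0.16 at 8 h.

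The same pattern without overlap was seen for Sc4mol, the sterol C4-methyl oxidase of cholesterol synthesis (now Msmo1, ENSMUSG00000031604, chromosome 8 from 67196936 to 67212589). Its level was 125, 130 and 122 CPM in 36 h SE mice against 101, 98.1 and 94.5 in 36 h controls, and 47.4 and 41.6 CPM in 8 h SE mice against 71.4, 69.3 and 63.7 in 8 h controls. The 8 h control of the other batch lay with the other 8 h controls. The difference was 0.98 ± 0.15 (adjusted p = 0.0375, edgeR's quasi-likelihood test, 0.00118 within batch).

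S100a1, a calcium-binding protein (ENSMUSG00000044080, chromosome 3 from 90314956 to 90318314), had 65.7, 53.3 and 61.8 CPM in 36 h SE mice against 40.5, 49.2 and 44.5 in 36 h controls, and 21.4 and 27.4 CPM in 8 h SE mice against 43.4, 72.1 and 69.3 in 8 h controls. It too lay above control at 36 h and below at 8 h in every library, although the first 8 h control, at 43.4 CPM, stood well below the other 8 h controls. Its difference of 1.75 ± 0.27 had an adjusted p of 0.0481 (edgeR's quasi-likelihood test), and of 1.62e-04 within batch. The last of the 7 has no name in the annotation. ENSMUSG00000100131 had 2.31, 2.95 and 2.67 CPM in 36 h SE mice against 2.16, 1.99 and 2.18 in 36 h controls, and 11.0 and 14.0 CPM in 8 h SE mice against 50.3, 53.9 and 99.5 in 8 h controls. The difference was 2.74 ± 0.40 (adjusted p = 0.0375, edgeR's quasi-likelihood test), and every 36 h library lay below every 8 h library.

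None of the 7 calls held when each library was left out in turn. Nptx2 kept an adjusted p under 0.05 in edgeR's quasi-likelihood test without 36 h SE replicate 3 (0.0431), 8 h SE replicate 2 (0.0374), 8 h control replicate 1 (0.00122) or 8 h control replicate 3 (0.0324), and Olfml3 and S100a1 without 8 h control replicate 1 only (9.50e-04 and 1.62e-04). The sign of each was the same in all 26 alternatives, where the difference of Sc4mol ran from 0.85 to 1.07, that of Olfml3 from 1.26 to 1.57, that of Nptx2 from -1.97 to -1.57 and that of Fosb from -2.7 to -1.83. Over these alternatives the adjusted p ran from 3.788e-12 to 0.162 for Nptx2, from 7.93e-07 to 0.162 for Olfml3, from 3.09e-07 to 0.183 for Sc4mol, from 1.749e-08 to 0.196 for Fosb and from 2.374e-12 to 0.32 for S100a1. The smallest values were those of the fit without a filter on low counts or of DESeq2.

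**Figure D2:**
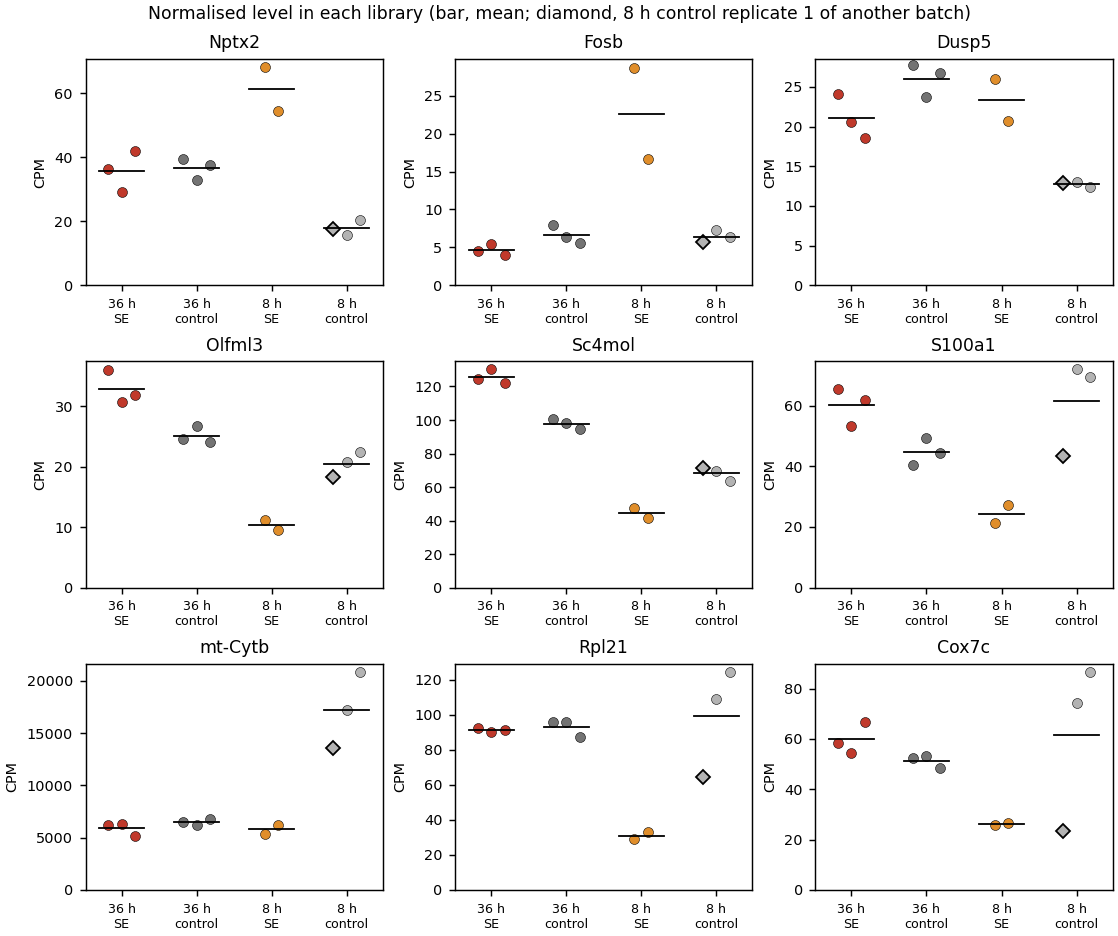
Normalised level (CPM, vertical axes from 0) of 9 genes in each library, with 3 mice at 36 h after SE, 3 controls of 36 h, 2 mice at 8 h after SE and 3 controls of 8 h; bars are group means and the diamond is 8 h control replicate 1 of another batch. Nptx2 and Fosb were high in the 8 h SE mice, Olfml3, Sc4mol and S100a1 low there, and for Cox7c the diamond, at 23.5 CPM, lies with the 8 h SE mice at 25.9 and 26.6 CPM and not with the other controls.

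Just outside the threshold lay mt-Cytb (adjusted p = 0.0583 in edgeR's quasi-likelihood test) and, at 0.0607, Rpl21, Slc13a3, Igfn1, Uqcrb, mt-Nd5, mt-Nd2, Dkk3 and Syt12 among others. Slc13a3, a carrier of dicarboxylates, had 23.2, 16.3 and 20.3 CPM in 36 h SE mice against 16.0, 10.7 and 12.8 in 36 h controls, and 12.3 and 12.6 CPM in 8 h SE mice against 21.2, 28.8 and 26.3 in 8 h controls. Dkk3, a secreted protein of the dickkopf family, showed the reverse, with 297, 253 and 296 CPM in 36 h SE mice against 444, 388 and 476 in 36 h controls, and 357 and 349 CPM in 8 h SE mice against 291, 281 and 262 in 8 h controls. Both had SE and control groups without overlap at either time. Syt12, a synaptotagmin of synaptic vesicles, also changed side without overlap, with 31.5, 24.2 and 28.5 CPM in 36 h SE mice against 36.8, 34.3 and 42.9 in 36 h controls and 45.4 and 40.0 CPM in 8 h SE mice against 25.6, 25.0 and 28.0 in 8 h controls.

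Genes of the neuronal activity programme as a group stood lower in the 36 h minus 8 h response. Of 30 immediate-early genes tested, 24 had a negative difference, with a median of -0.76, made of a median SE effect of -0.20 at 36 h and 0.32 at 8 h. Over all genes tested the same medians were 0.02, -0.01 and -0.02. With all libraries 1 of the 30 passed, Fosb, beside 0.018% of all genes called lower, and within batch 5 were lower and 2 higher, beside 5.49% and 6.2% of all genes. The 5 were Fos, Fosb, Arc, Ier5 and Dusp6, and the 2 were Jund and Gadd45g. At 8 h, 22 of the 30 lay above control on average and at 36 h 9 did.

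Fos, the founding AP-1 factor, had 6.93, 6.31 and 5.46 CPM in 36 h SE mice against 19.6, 5.70 and 7.19 in 36 h controls, and 17.3 and 9.11 CPM in 8 h SE mice against 2.68, 3.57 and 2.61 in 8 h controls. A single 36 h control, replicate 1, stood above the rest, and all other 36 h values were alike. Arc, which drives the removal of AMPA receptors from synapses, had 84.7, 52.2 and 65.1 CPM in 36 h SE mice against 192, 76.7 and 143 in 36 h controls, and 103 and 75.0 CPM in 8 h SE mice against 54.6, 61.3 and 58.6 in 8 h controls. Within batch their differences were -2.87 ± 0.66 (adjusted p = 0.0163, edgeR's quasi-likelihood test) and -1.60 ± 0.42 (adjusted p = 0.0272). With all libraries neither passed (0.118 and 0.176).

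Among 32 later activity genes the median difference was -0.26, with 22 negative, from medians of -0.01 at 36 h and 0.25 at 8 h. Nptx2 passed with all libraries, and within batch 6 were lower (Nptx2, Bdnf, Homer1, Inhba, Pcsk1 and Cdkn1a) and 3 higher (Npy, Penk and Cck), beside 6.2% of all genes called higher and 5.49% lower. Homer1, a scaffold of metabotropic glutamate receptors, had 69.9, 84.8 and 71.5 CPM in 36 h SE mice against 89.3, 83.9 and 93.2 in 36 h controls, and 151 and 135 CPM in 8 h SE mice against 111, 92.9 and 82.0 in 8 h controls. Inhba, the subunit of activin A, had 2.03, 1.95 and 2.96 CPM in 36 h SE mice against 3.45, 2.12 and 3.09 in 36 h controls, and 6.43 and 4.57 CPM in 8 h SE mice against 3.10, 1.31 and 1.45 in 8 h controls. The groups of both genes overlapped at 36 h and were separate at 8 h. Cdkn1a, the cell cycle inhibitor p21, had 11.4, 10.3 and 7.38 CPM in 36 h SE mice against 7.29, 8.55 and 8.5 in 36 h controls, and 17.9 and 36.5 CPM in 8 h SE mice against 5.71, 6.66 and 6.37 in 8 h controls.

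The 3 higher genes encode neuropeptides, whereas other peptide genes of the list, Vip and Scg2, had differences of -0.27 and -0.20 and did not pass. Penk, the precursor of the enkephalins, had 28.6, 38.5 and 41.4 CPM in 36 h SE mice against 24.2, 26.5 and 26.7 in 36 h controls, and 18.6 and 14.7 CPM in 8 h SE mice against 26.7, 24.9 and 33.3 in 8 h controls, with SE above control at 36 h and below it at 8 h in every library. Its difference was 1.31 ± 0.26 within batch (adjusted p = 0.00737, edgeR's quasi-likelihood test) and 1.27 ± 0.26 with all libraries (adjusted p = 0.113). Npy, the inhibitory neuropeptide Y, had 70.6, 58.0 and 76.5 CPM in 36 h SE mice against 49.2, 59.9 and 51.7 in 36 h controls, and 27.3 and 21.0 CPM in 8 h SE mice against 26.8, 48.5 and 60.6 in 8 h controls. At 26.8 CPM the 8 h control of the other batch lay among the 8 h SE mice, and the difference of 1.55 ± 0.22 passed within batch (adjusted p = 0.00151) and not with all libraries (0.244).

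Of 20 feedback regulators of the MAP kinase pathway, 16 had a negative difference (median -0.33, from -0.16 at 36 h and 0.23 at 8 h), none passed with all libraries, and 6 were lower within batch (Dusp5, Dusp6, Dusp16, Spry2, Spry4 and Spred1) and none higher, beside 6.2% of all genes called higher and 5.49% lower. Dusp5, a nuclear phosphatase of ERK, had 24.1, 20.6 and 18.5 CPM in 36 h SE mice against 27.7, 23.7 and 26.7 in 36 h controls, and 26 and 20.7 CPM in 8 h SE mice against 12.8, 12.9 and 12.4 in 8 h controls. The 3 controls of 8 h were nearly equal, and the 8 h SE mice lay clear of them. Dusp6, the cytosolic phosphatase of ERK, had 39.5, 34.7 and 34.4 CPM in 36 h SE mice against 59.2, 45.5 and 56.4 in 36 h controls, and 38.9 and 44.3 CPM in 8 h SE mice against 37.4, 29.2 and 32.6 in 8 h controls. For Dusp6 the larger effect was that of 36 h, with a log2 effect of -0.57 ± 0.13, against 0.34 ± 0.15 at 8 h. The 36 h SE mice lay within the range of the 8 h mice. The 36 h controls lay above all other mice, which cannot be told apart from batch.

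A minority of the promoters of this programme hold the cAMP response element, the palindrome TGACGTCA to which CREB binds. In RefSeq promoter windows of GRCm38.p6, from 250 bases before to 50 bases after the start of a gene and read on both strands, it was found in 3 of 26 immediate-early genes (11.5%), 4 of 23 later activity genes (17.4%) and 3 of 17 MAP kinase regulators (17.6%), and in 549 of all 27025 windows (2.03%). Complex I genes (9.09% of 33) and cytosolic ribosome genes (10.5% of 57), which stood higher in the 36 h minus 8 h response, held it as well, and none of 15 genes of cholesterol synthesis did. The windows of Fosb, Dusp5 and Csrnp1 hold no match. Shown are 68 bases of 5 of these promoters, with the element in capitals, because they cover both directions of the response.
Pcsk1 (chr13:75089749-75089816, plus strand): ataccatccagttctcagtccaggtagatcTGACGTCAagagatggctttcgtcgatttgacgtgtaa
Btg2 (chr1:134079284-134079351, minus strand): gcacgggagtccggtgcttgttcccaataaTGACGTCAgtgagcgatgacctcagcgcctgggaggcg
Dusp1 (chr17:26508578-26508645, minus strand): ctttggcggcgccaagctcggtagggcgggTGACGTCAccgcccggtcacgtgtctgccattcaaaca
Errfi1 (chr4:150854989-150855056, plus strand): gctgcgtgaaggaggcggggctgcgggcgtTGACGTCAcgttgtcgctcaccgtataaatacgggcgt
Sst (chr16:23890855-23890922, minus strand): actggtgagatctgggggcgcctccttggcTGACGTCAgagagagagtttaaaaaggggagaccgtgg

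Of these 5 genes, Pcsk1, the prohormone convertase 1, passed within batch (-1.44, adjusted p = 0.0325 in edgeR's quasi-likelihood test). It had 9.81, 12.6 and 16.8 CPM in 36 h SE mice against 13.7, 17.6 and 11.0 in 36 h controls, and 32.5 and 22.0 CPM in 8 h SE mice against 14.9, 13.1 and 8.31 in 8 h controls. The differences with all libraries were -0.78 for Btg2, an antiproliferative protein, -0.54 for Dusp1, a MAP kinase phosphatase, -0.60 for Errfi1, an inhibitor of the EGF receptor, and 0.46 for Sst, the neuropeptide somatostatin. None of these 4 passed.

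Genes of cholesterol synthesis lay above control at 36 h and mostly below it at 8 h. Of 19 genes tested, all 19 lay above control at 36 h, 14 lay below at 8 h and 14 did both. The median SE effect was 0.28 at 36 h and -0.24 at 8 h, and the median difference 0.50. Sc4mol passed with all libraries (1 of 19, beside 0.0239% of all genes called higher), and 7 were higher within batch and none lower (among them Mvk, Pmvk, Fdps, Fdft1, Sc4mol and Nsdhl), beside 6.2% of all genes. The effect at 36 h was alike in the SE mice, with a median deviation from the 36 h controls of 0.20, 0.27 and 0.27 in replicates 1, 2 and 3. At 8 h the median deviation from 8 h controls 2 and 3 was -0.14 and -0.35 in SE replicates 1 and 2. In 8 h control replicate 1 it was -0.17, which lies between the SE mice.

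The genes called act both early and late in the pathway. Nsdhl, which removes the C4 methyl groups of sterols together with Sc4mol, had 30.9, 32.4 and 33.6 CPM in 36 h SE mice against 24.9, 26.5 and 25.8 in 36 h controls, and 16.8 and 19.4 CPM in 8 h SE mice against 25.6, 30.2 and 29.7 in 8 h controls. SE and control were separate at both times, on opposite sides. Fdft1, the squalene synthase, had 102, 106 and 117 CPM in 36 h SE mice against 93.4, 99.3 and 78.3 in 36 h controls, and 53.3 and 49.5 CPM in 8 h SE mice against 68.4, 69.8 and 61.0 in 8 h controls, again without overlap and on opposite sides. Hsd17b7 and Acat2 were among the members with a difference below 0, of -0.13 and -0.29.

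Among 20 genes that carry or sense cholesterol the median difference was 0.12, and within batch 4 were higher and 3 lower, beside 6.2% of all genes called higher and 5.49% lower. Abca1, which exports cholesterol, was among the lower genes (-0.82 ± 0.24, adjusted p = 0.0409 in edgeR's quasi-likelihood test), with 57.3 and 87.3 CPM in 8 h SE mice against 58.6, 46.7 and 36.3 in 8 h controls.

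**Figure D3:**
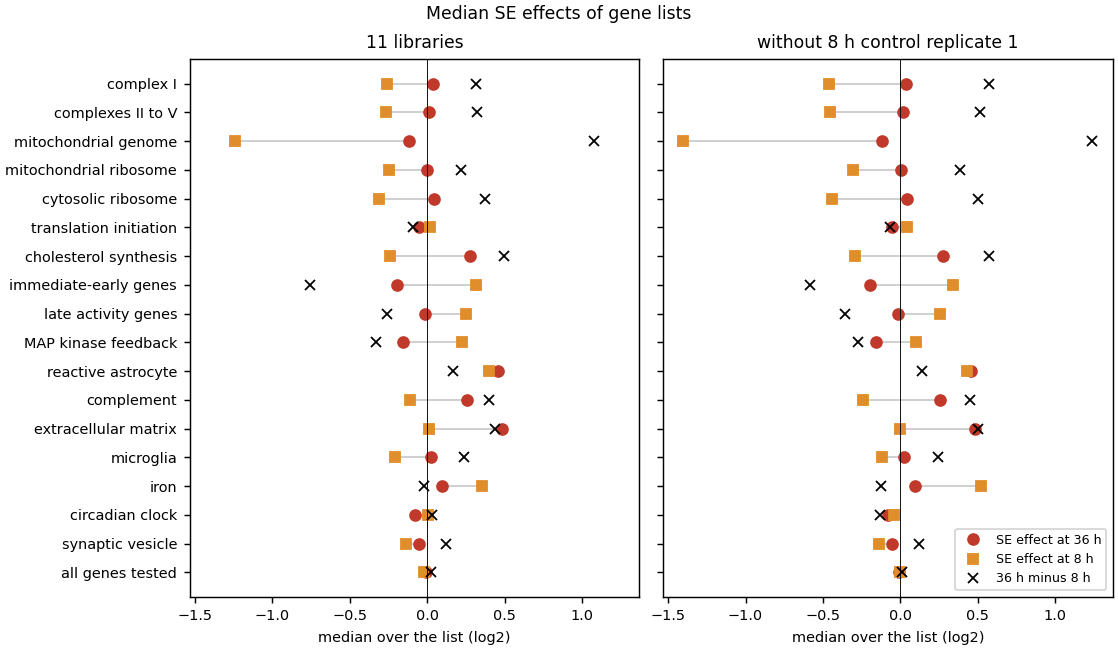
Median log2 SE effect at 36 h (red circles) and at 8 h (orange squares), and median 36 h minus 8 h response (crosses), over the tested members of 17 gene lists and over all genes tested, with all 11 libraries (left) and without 8 h control replicate 1 (right). The mitochondrial genome, the respiratory complexes and the ribosomes have their squares left of 0 and their circles near 0, cholesterol synthesis lies on both sides of 0, and the immediate-early genes have their circle left of 0.

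Among the 30 pathway lists, the mitochondrial genome had the largest median difference. The 13 protein genes had a median difference of 1.08, from a median SE effect of -0.12 at 36 h and -1.24 at 8 h, and 11 of the 13 had a positive difference. Counts of these genes were very unequal, from 0 to 1.03 CPM for mt-Atp8 to 7839 to 36483 CPM for mt-Co1. The median difference and the median 8 h effect were those of mt-Nd3, which had 0.81 to 8.31 CPM. None passed with all libraries, and within batch 9 were higher and none lower (median 1.24), beside 6.2% of all genes called higher and 5.49% lower. mt-Cytb, cytochrome b of complex III, had 6202, 6286 and 5167 CPM in 36 h SE mice against 6460, 6253 and 6811 in 36 h controls, and 5364 and 6205 CPM in 8 h SE mice against 13574, 17226 and 20848 in 8 h controls. The 8 h SE mice thus had the level of all 36 h mice, and the 8 h controls stood apart. mt-Nd2, a subunit of complex I, differed by 1.83 ± 0.32 (adjusted p = 0.0607 in edgeR's quasi-likelihood test, and 0.00118 within batch), with 2493, 3448 and 1932 CPM in 36 h SE mice against 2518, 2403 and 2748 in 36 h controls and 3243 and 3876 CPM in 8 h SE mice against 8920, 12933 and 15007 in 8 h controls. The mitochondrial genome took 3.65%, 3.98% and 2.72% of all counts in 36 h SE mice against 3.71%, 3.34% and 3.96% in 36 h controls, and 3.96% and 5.03% in 8 h SE mice against 7.97%, 11.3% and 13.0% in 8 h controls. The part of this share in the other results was not tested.

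Nuclear genes of the respiratory chain had smaller differences. The 37 genes of complex I had a median difference of 0.31 (0.04 at 36 h and -0.26 at 8 h) and the 40 genes of complexes II to V one of 0.32 (0.02 and -0.27). None passed with all libraries. Within batch 17 complex I genes were higher and 2 lower, and 20 genes of complexes II to V were higher and none lower, with the same shares of all genes. Uqcrb, a subunit of complex III, had 77.4, 73.1 and 74.3 CPM in 36 h SE mice against 68.6, 82.7 and 69.6 in 36 h controls, and 30.4 and 37.1 CPM in 8 h SE mice against 61.1, 81.1 and 70.4 in 8 h controls. For Uqcrb all 3 controls of 8 h lay above the SE mice. For Cox7c, a subunit of cytochrome c oxidase, the groups were 58.3, 54.4 and 66.6 CPM in 36 h SE mice against 52.4, 53.2 and 48.4 in 36 h controls, and 25.9 and 26.6 CPM in 8 h SE mice against 23.5, 74.4 and 86.6 in 8 h controls, so that the first 8 h control was lower than both SE mice. Ndufv1, a flavoprotein subunit of complex I, went the other way, with 130 and 121 CPM in 8 h SE mice against 96.1, 85.9 and 93.4 in 8 h controls, and a difference of -0.54 ± 0.13 within batch (adjusted p = 0.0169 in edgeR's quasi-likelihood test).

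Ribosomal protein genes behaved like the nuclear respiratory genes. Of 76 genes of the cytosolic ribosome, 58 had a positive difference (median 0.37, from 0.04 at 36 h and -0.31 at 8 h), none passed with all libraries, and within batch 33 were higher and 2 lower, against those same shares. Of 38 genes of the mitochondrial ribosome, 8 were higher and 1 lower within batch (median 0.39). Rpl21, a protein of the large subunit, had 92.3, 90.2 and 91.6 CPM in 36 h SE mice against 95.8, 95.9 and 87.0 in 36 h controls, and 29.1 and 32.8 CPM in 8 h SE mice against 64.7, 109 and 124 in 8 h controls. Rps6, a small subunit protein that kinases phosphorylate in active neurons, had 85.6, 77.0 and 83.2 CPM in 36 h SE mice against 80.9, 83.2 and 81.3 in 36 h controls, and 54.8 and 56.8 CPM in 8 h SE mice against 84.2, 84.3 and 83.4 in 8 h controls. Rps6 was level in all controls of both times and in the 36 h SE mice, and low in the 8 h SE mice alone (difference 0.59 ± 0.12 within batch, adjusted p = 0.0077 in edgeR's quasi-likelihood test). Ribosomal protein genes have many processed copies in the genome, so single values are uncertain. The 42 genes of translation initiation had a median difference of -0.09, and 3 were higher and 4 lower within batch, near the shares of all genes (6.2% and 5.49%).

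The level of 8 h control replicate 1 differed between these lists and the others. It is the only mouse of its batch here, so batch and mouse cannot be told apart. Although it was left out of the within-batch test, its level can be set against the libraries used there. For 862 of the 1045 genes called higher (82.5%) and 754 of the 925 called lower (81.5%) it lay nearer to the mean of the 8 h SE mice than to the mean of 8 h controls 2 and 3, against 57.9% of all 16850 genes. The genes were called on these same 8 h SE mice and controls. A library left out therefore lies nearer to the SE mice more often by construction, and the counts per list share this limit. It did so for 18 of 19 called genes of complex I, 19 of 20 of complexes II to V, 29 of 35 of the cytosolic ribosome and all 9 of the mitochondrial ribosome. For the mitochondrial genome it did so for 2 of 9, for cholesterol synthesis 4 of 7, for immediate-early genes 3 of 7, for later activity genes 4 of 9 and for MAP kinase regulators 3 of 6. Whether this control or the 2 left in the within-batch test stand apart was not tested.

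The medians by library are over all tested members of a list, called or not. By them this control mouse had nuclear respiratory and ribosomal levels as low as those of the 8 h SE mice. For complex I the median deviation from control was 0.09, -0.08 and 0.11 in the 36 h SE mice, -0.28 and -0.59 in the 8 h SE mice and -0.84 in 8 h control replicate 1. For the cytosolic ribosome it was 0.11, -0.09 and 0.07 in the 36 h SE mice, -0.39 and -0.49 in the 8 h SE mice and -0.44 in that control. For immediate-early genes it was -0.14, -0.31 and -0.23 in the 36 h SE mice, 0.20 and 0.17 in the 8 h SE mice and -0.27 in that control, which was thus on the side of the 36 h SE mice.

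**Figure D4:**
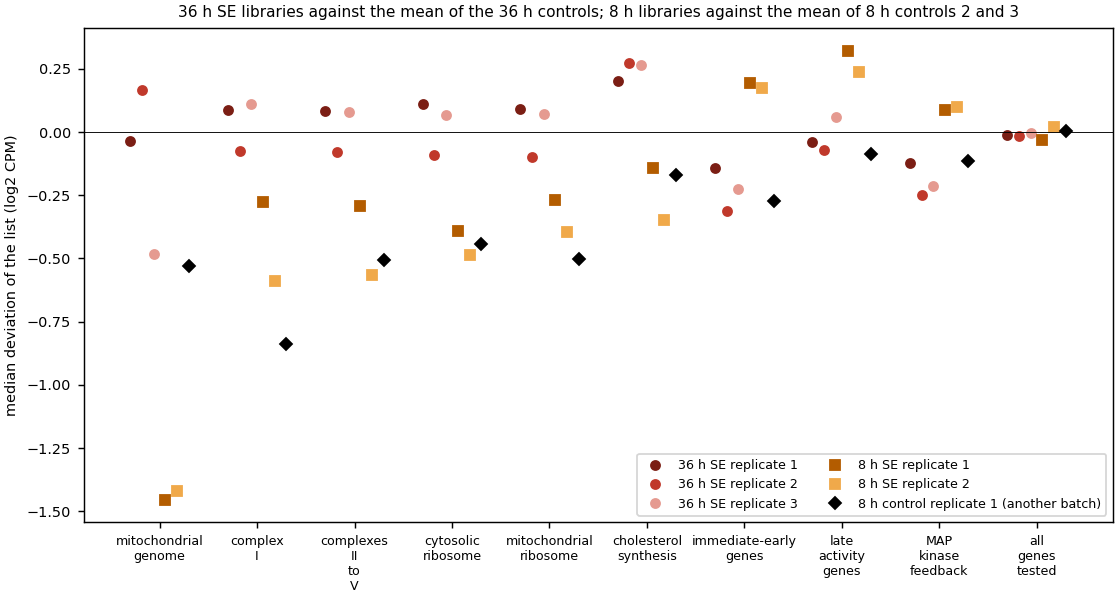
Median deviation of the members of 9 gene lists and of all genes tested (log2 CPM), for each 36 h SE mouse from the mean of the 36 h controls, and for each 8 h SE mouse and 8 h control replicate 1 from the mean of 8 h controls 2 and 3. For the respiratory complexes and the ribosomes the black diamond of the control lies as low as the 8 h SE mice, and for the immediate-early and later activity genes it lies below 0 while the 8 h SE mice lie above.

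The difference also varied with the length of the genes. Across the 15700 genes with an annotated exon length, the difference fell with length (Spearman coefficient -0.20, and -0.26 over 15803 genes within batch), and the genes called within batch had a median exon length of 2071 bases when higher and 5028 bases when lower, against 3521 bases for all. With the genes in 5 length classes, the deviation in the shortest class had a median of -0.30 and -0.31 in the 8 h SE mice and -0.35 in 8 h control replicate 1, against 0.08, -0.02 and 0.06 in the 36 h SE mice. Within batch that class held 461 of the genes called higher and 29 of those called lower, and the longest class 69 and 326. With a length trend taken out of each library, an alternative chosen after seeing the data, 1580 genes were called within batch, 1297 of them among the 1970. In this setting 11 genes of complex I were called higher and 5 lower (median 0.25), and 12 and 2 of complexes II to V (0.16), 19 and 5 of the cytosolic ribosome (0.18), 6 and none of the mitochondrial genome (0.98) and 7 and none of cholesterol synthesis (0.48). The counts of the first 3 lists were thus lower for higher calls and higher for lower calls than without the correction.

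**Figure D5:**
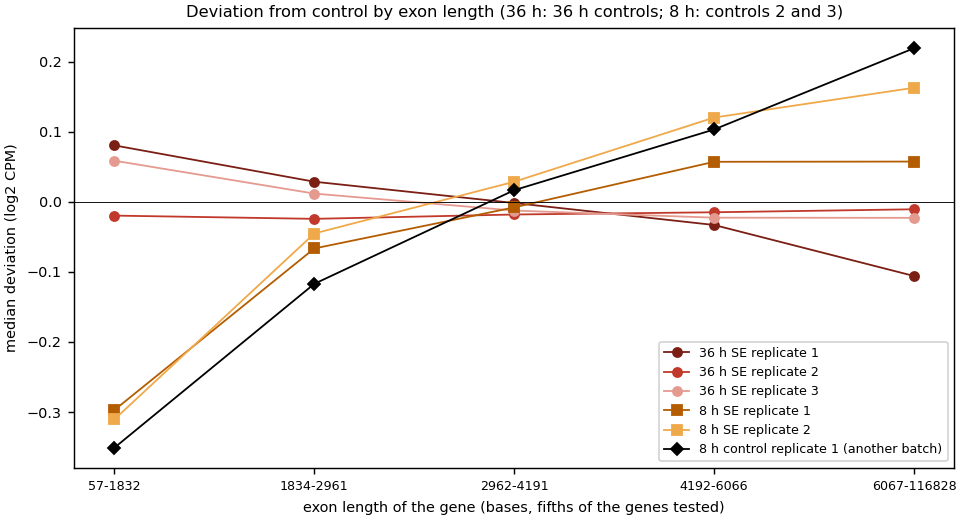
Median deviation from control (log2 CPM, vertical axis) of genes in 5 classes of exon length (horizontal axis, bases), for each 36 h SE mouse from the 36 h controls, and for each 8 h SE mouse and 8 h control replicate 1 from 8 h controls 2 and 3. The lines of both 8 h SE mice and of the left-out control run upward from between -0.35 and -0.30 in the shortest class, and those of the 36 h SE mice stay between -0.11 and 0.08.

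Reactive astrocyte genes lay mostly above control at both times. Of 32 reactive astrocyte genes, 28 lay above control at 36 h and 24 at 8 h, with medians of 0.46 and 0.40 and a median difference of 0.17. The SE mice of 36 h were not alike, with a median deviation from the 36 h controls of 0.82, 0.46 and 0.03 in replicates 1, 2 and 3. In the 8 h SE mice the median deviation from 8 h controls 2 and 3 was 0.56 and 0.32. None passed with all libraries, and within batch Gfap, S100a6, Timp1 and Igfn1 were higher and Osmr, Fkbp5 and Cd109 lower, 4 and 3 of 32 beside 6.2% of all genes called higher and 5.49% lower. Gfap, the intermediate filament of astrocytes, had 1189, 829 and 1268 CPM in 36 h SE mice against 418, 421 and 449 in 36 h controls, and 581 and 551 CPM in 8 h SE mice against 290, 352 and 396 in 8 h controls. SE lay above control at both times, with a log2 effect of 1.35 ± 0.16 at 36 h and 0.71 ± 0.17 at 8 h, and their difference of 0.64 ± 0.23 passed within batch (0.75 ± 0.21, adjusted p = 0.035 in edgeR's quasi-likelihood test) and not with all libraries (0.315).

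Some of these genes were set apart at a single time. Igfn1, an immunoglobulin-domain protein best known from muscle, had 7.44, 9.60 and 17.5 CPM in 36 h SE mice against 0.707, 0.995 and 1.01 in 36 h controls, and 13.6 and 7.24 CPM in 8 h SE mice against 5.71, 7.69 and 6.37 in 8 h controls. Its low level was that of the 36 h controls alone. S100a6, a calcium-binding protein of reactive astrocytes, had 22.9, 14.9 and 26.9 CPM in 36 h SE mice against 9.10, 7.89 and 8.75 in 36 h controls, and 3.68 and 3.31 CPM in 8 h SE mice against 2.96, 4.69 and 4.35 in 8 h controls. Osmr, the receptor of oncostatin M, was high at 8 h instead, with 5.75, 4.90 and 5.0 CPM in 36 h SE mice against 3.71, 4.91 and 5.36 in 36 h controls, and 15.4 and 17.2 CPM in 8 h SE mice against 6.35, 5.72 and 5.02 in 8 h controls. Stat3, the factor downstream of that receptor, lay above control in every SE mouse of both times, with a log2 effect of 0.22 ± 0.10 at 36 h and 0.63 ± 0.11 at 8 h.

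Extracellular matrix genes had a median SE effect of 0.48 at 36 h and 0.01 at 8 h (43 genes), with a median difference of 0.44 and 38 positive. None passed with all libraries, and within batch Col1a1, Col27a1, Bgn, Tnc and Timp1 were higher, 5 of 43 beside 6.2% of all genes. Tnc, the matrix protein tenascin C, had 19, 21.0 and 21.4 CPM in 36 h SE mice against 13.2, 15.5 and 13.0 in 36 h controls, and 5.51 and 5.87 CPM in 8 h SE mice against 11.5, 9.48 and 7.15 in 8 h controls. Col27a1, a fibrillar collagen, had 19.6, 17.5 and 15.9 CPM in 36 h SE mice against 10.9, 10.1 and 10.2 in 36 h controls, and 6.55 and 7.34 CPM in 8 h SE mice against 6.98, 10.1 and 9.85 in 8 h controls. With 36 h SE replicate 3 as the only 36 h SE library the median of the list was 0.13. The 10 markers of meningeal fibroblasts, which make much of this matrix, had a median difference of 1.19. Their median deviation from the 36 h controls was 1.48, 0.96 and 0.58 in 36 h SE replicates 1, 2 and 3. For the matrix list it was 0.61, 0.60 and 0.19. The summed level of the markers was 678, 601 and 444 CPM in 36 h SE mice against 348, 338 and 205 CPM in 36 h controls. At 8 h it was 537 and 488 CPM in SE mice against 402, 675 and 512 CPM in controls. Single markers weigh much in the sum, such as Nov with 74.8, 120 and 215 CPM in 36 h SE mice and Igf2 with 259, 214 and 57.8. Other members of the matrix list followed the choroid plexus markers given below, such as Col8a1, a short-chain collagen, with 15.8, 21.8 and 1.98 CPM in 36 h SE mice against 0.928, 1.33 and 0.708 in 36 h controls. The part of both marker groups in the result was not tested.

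Of 20 complement genes 15 had a positive difference (median 0.40), and 3 (C1qb, C1qc and Clu) were higher within batch, beside 6.2% of all genes. C1qc, a chain of the first component, had 51.0, 40.5 and 55.0 CPM in 36 h SE mice against 39.1, 35.5 and 35.4 in 36 h controls, and 30.4 and 26.3 CPM in 8 h SE mice against 25.5, 39.7 and 52.4 in 8 h controls. The 8 h control of the other batch was the lowest of the 8 h values. Of 15 microglial markers 12 had a positive difference (median 0.24), and Olfml3 passed with all libraries. Within batch P2ry12 and Tyrobp were higher in addition, beside the same 6.2% of all genes. P2ry12, the purinergic receptor of resting microglia, had 22.7, 23.8 and 22.4 CPM in 36 h SE mice against 23.5, 23.4 and 27.9 in 36 h controls, and 22.3 and 15.8 CPM in 8 h SE mice against 43.4, 34.6 and 35.4 in 8 h controls, where all 3 controls lay together. The summed level of the 15 markers was 572, 520 and 579 CPM in 36 h SE mice against 502, 496 and 543 CPM in 36 h controls, and 382 and 331 CPM in 8 h SE mice against 446, 402 and 397 CPM in 8 h controls.

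The largest differences in size were those of choroid plexus epithelium, the tissue that lines the ventricle beside the hippocampus and secretes cerebrospinal fluid. All 20 of its markers had a positive difference (median 3.16), and none passed with all libraries. Their summed level was 9445, 7805 and 262 CPM in 36 h SE mice against 311, 427 and 356 CPM in 36 h controls, and 5183 and 5259 CPM in 8 h SE mice against 1125, 6206 and 1949 CPM in 8 h controls. The markers were high in 36 h SE replicates 1 and 2 and low in replicate 3, where 2 of them were at 0, and they varied among the 8 h controls. Ttr, transthyretin, had 6954, 5447 and 35.1 CPM in 36 h SE mice against 42.3, 97.9 and 27.3 in 36 h controls, and 2744 and 2747 CPM in 8 h SE mice against 325, 3342 and 1164 in 8 h controls. Ttr, Slc4a5, Kcnj13, Clic6, Sostdc1 and Slc13a4 passed within batch (adjusted p from 0.0263 to 0.047 in edgeR's quasi-likelihood test), beside 6.2% of all genes called higher. With 36 h SE replicate 3 as the only 36 h SE library the median of the list was -0.74 and that of Ttr -1.44, and the part of the plexus in the results of other genes was tested only by these alternatives. In the same setting the median of complex I was 0.42, of the cytosolic ribosome 0.43, of cholesterol synthesis 0.49 and of immediate-early genes -0.67.

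Clock genes showed both directions within batch, with 4 of 22 higher and 6 lower, beside 6.2% of all genes called higher and 5.49% lower. Per3, a repressor of the clock, had 38.5, 37.0 and 33.9 CPM in 36 h SE mice against 52.0, 45.0 and 46.3 in 36 h controls, and 74.2 and 82.2 CPM in 8 h SE mice against 63.7, 54.1 and 54.5 in 8 h controls (difference -0.92 ± 0.14 within batch, adjusted p = 0.00229 in edgeR's quasi-likelihood test). SE and control of Per3 were separate at both times, on opposite sides. The 36 h controls were not matched to 36 h alone, and the part of this in the clock genes was not tested. Rorb, an activator in the clock, had 12.9, 14.2 and 15.3 CPM in 36 h SE mice against 13.2, 12.7 and 13.8 in 36 h controls, and 18.5 and 19.1 CPM in 8 h SE mice against 39.8, 29.1 and 32.3 in 8 h controls. Rorb is also 1 of 10 markers of the thalamus and cortex beside the hippocampus. Their median deviation from 8 h controls 2 and 3 was -0.43 and -0.22 in the 8 h SE mice and 0.26 in 8 h control replicate 1. The part of neighbouring tissue in the Rorb result was not tested. Of the other clock genes called, Nr1d1, Dbp and Bhlhe41 were higher and Per2, Nr1d2, Tef, Bhlhe40 and Csnk1d lower.

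In iron handling, Tfrc (the transferrin receptor), Slc11a2 (the divalent metal transporter), Ireb2 and Fbxl5 (sensors of cell iron) were lower within batch and Steap3, a ferric reductase, was higher, of 22 genes with a median difference of -0.02, beside 6.2% of all genes called higher and 5.49% lower. Slc11a2 had 48.2, 49.5 and 45.8 CPM in 36 h SE mice against 56.2, 51.0 and 52.1 in 36 h controls, and 68.8 and 61.9 CPM in 8 h SE mice against 50.3, 49.6 and 45.7 in 8 h controls, on opposite sides without overlap. In BMP and activin signalling (30 genes, median -0.01) 5 were lower within batch, Inhba, Fst, Smad4, Smad5 and Smad7, and Bmp7 was higher, against the same shares of all genes. Fst, which binds activin and blocks it, had 1.18, 1.14 and 0.291 CPM in 36 h SE mice against 2.34, 2.52 and 2.02 in 36 h controls, and 2.07 and 2.77 CPM in 8 h SE mice against 1.69, 1.31 and 1.35 in 8 h controls. Activin subunit and inhibitor thus had differences of the same sign.

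Lists of neuronal function had median differences with all libraries between -0.07 and 0.15, and none of their members passed there. Within batch, beside 6.2% of all genes called higher and 5.49% lower, 2 of 26 glutamate receptor genes were higher and none lower, 0 of 22 GABA genes passed, 5 of 36 synaptic vesicle genes were higher and 2 lower, 3 of 28 postsynaptic genes were higher and 3 lower, 1 of 44 potassium channel genes was higher and 3 lower, and 3 of 31 genes of sodium, calcium and HCN channels were lower. Of the neuronal cell types, CA1 markers had a median of -0.25 (8 genes, 2 lower within batch), CA3 and CA2 markers -0.12 (10 genes, none called), dentate granule cell markers 0.05 (10 genes, 1 higher and 1 lower) and interneuron markers 0.08 (12 genes, 3 higher). Oligodendrocyte markers lay below control for 13 of 14 genes at each time, with a median difference of 0.02.

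The genes with the smallest p within batch, ranked without regard to list, were in the higher direction Rpl21, Rps26, Ost4, Cox7c, Cox6a1, Fxyd1, S100a1, Rps15, Gm4149 and Chchd10, with adjusted p values from 5.26e-05 to 1.78e-04 (edgeR's quasi-likelihood test). Rps26 had 101, 103 and 116 CPM in 36 h SE mice against 85.9, 106 and 89.5 in 36 h controls, and 49.7 and 46.3 CPM in 8 h SE mice against 57.4, 174 and 212 in 8 h controls. Among the 8 h controls the first lay near the SE mice, and for Ost4, Cox6a1, Fxyd1, Rps15 and Chchd10 it lay near or below them. Gm4149 is annotated as a pseudogene, so its counts are uncertain.

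Among the lower genes the order was Ppp4r4, Skil, Dio2, Pdpk1, Pafah1b1, Dstyk, Nptx2, Wdr26, Tnks2 and Fkbp5, with adjusted p values from 3.04e-04 to 0.00123. Dio2, the deiodinase that activates thyroid hormone in astrocytes, had 42.2, 39.2 and 42.9 CPM in 36 h SE mice against 52.0, 47.9 and 58.2 in 36 h controls, and 78.1 and 113 CPM in 8 h SE mice against 74.8, 40.3 and 38.1 in 8 h controls. Fkbp5, a chaperone of the glucocorticoid receptor induced by glucocorticoids, had 60.5, 59 and 52.8 CPM in 36 h SE mice against 64.7, 68.8 and 70.9 in 36 h controls, and 73.2 and 104 CPM in 8 h SE mice against 65.0, 40.3 and 41.9 in 8 h controls. Both had SE below control at 36 h and above it at 8 h in every library, and in both the control of the other batch was the highest control of 8 h.

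Genes with an SE effect of their own at both times were rare. Within batch Gfap, Vim, C4b, Dkk3 and Tmem176b passed at both, the last 2 with opposite signs. Vim, C4b and Tmem176b are named here after their values were seen. Tmem176b, a membrane protein of immune cells, had a log2 SE effect of 0.77 at 36 h and -0.51 at 8 h, with a difference of 1.28 ± 0.17 (adjusted p = 0.00118 within batch in edgeR's quasi-likelihood test and 0.322 with all libraries), and Dkk3 one of -0.63 at 36 h and 0.38 at 8 h. Vim, a filament protein of reactive astrocytes, and C4b, a complement component, were above control by similar amounts at both times, with effects of 0.93 and 1.12 at 36 h and 0.88 and 1.02 at 8 h.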

How the data were processed

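The authors made poly(A) libraries with a stranded kit, aligned the reads to mouse NCBIM37 (mm9) with HISAT2 2.1.0 and counted reads per gene with HTSeq, and deposited raw counts without normalization. The filter and the fit used the 4 groups of the 11 libraries. Counts were filtered with filterByExpr, normalized by TMM and tested with edgeR 4.0.16 (quasi-likelihood, R 4.3.3) with 1 mean per group and 7 residual degrees of freedom, for the contrast of the SE effects at 36 h and 8 h. Standard errors were derived from the fold change and F value. P values carry the Benjamini-Hochberg adjustment across the genes tested, with a threshold of 0.05, and measure the spread between mice. CPM values are TMM-normalized, with a prior count of 1 on the log2 scale. DESeq2 1.42.0 was an alternative test.

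The annotation named 33068 of 43629 identifiers and 15700 of the 16705 tested. Positions of genes are those of NCBIM37, and those of the promoter sequences are of GRCm38.p6. Named were the 12 genes per direction with the smallest p, the 10 per direction within batch, up to 4 members per list, and genes that the study discusses. The comparison, the 46 lists (1077 genes) and the tests were chosen with earlier results of these data known. A list is described by its counts and median beside those of all genes. Exon lengths are those of the merged exons of each gene. The test was checked on simulated data. Alternatives were other tests, normalizations and filters, a fit of all 19 mRNA libraries, covariates for sex and choroid plexus score, each library left out, and, added after seeing the data, 4 settings on batch and exon length. Some members of the lists are not reported here.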

Additional observations from a re-analysis of the deposited data

Results flagged for a closer look

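The SE effect differed between 36 h and 8 h, by the test of the difference itself, for 7 genes. In edgeR's quasi-likelihood test the 36 h minus 8 h response was -1.81 for Nptx2, -5.67 for Gm15564, 2.74 for ENSMUSG00000100131, 1.38 for Olfml3, 0.98 for Sc4mol and -2.35 for Fosb (adjusted p = 0.0375 each), and 1.75 for S100a1 (adjusted p = 0.0481). With groups of 2 or 3 libraries no test for a single deviating library was made.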

How the results depend on the processing

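With all 11 libraries 7 genes passed in the 36 h minus 8 h response, 138 in the SE effect at 8 h and 2 in that at 36 h. In the same order the counts were 151, 614 and 72 by edgeR's likelihood ratio test, 196, 797 and 47 by DESeq2, 634, 1040 and 238 without a filter on low counts, and 25, 423 and 10 with all 19 mRNA libraries in 1 fit. They were 0, 51 and 2 with sex by the study's table, 0, 56 and 1 with sex by transcripts, 2, 77 and 2 with the choroid plexus score as covariates, and 0, 25 and 2 with 36 h SE replicate 3 as the only 36 h SE library, which is then assumed to vary like the other groups. The robust test called 17 genes in the difference, and scaling by RLE the same number as TMM. Leaving out single libraries gave 0 to 1970 calls in the difference, 1 to 2919 at 8 h and 0 to 75 at 36 h. The highest counts in the difference and at 8 h were those without 8 h control replicate 1, the lowest at 8 h that without 8 h SE replicate 1, and the highest at 36 h that without 36 h SE replicate 3. Settings added after seeing the data gave 1462, 1951 and 5 without 8 h control replicate 1 and 8 h SE replicate 1, 1859, 2560 and 5 without 8 h control replicate 1 and 8 h SE replicate 2, 12, 197 and 6 with the length trend taken out, and 1580, 2598 and 10 with that and without 8 h control replicate 1. Fewer libraries were fitted in the first pair of these, and the cause of the other changes was not tested.

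The replicate numbers did not pair the libraries, with correlations of the deviations of same-numbered libraries from -0.08 to 0.17 and 1 of 15 over 0.1. With the replicate block, 5 genes passed in the difference, 3 of them among the 7, with 27 at 8 h and 3 at 36 h.

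Signs turned for choroid plexus markers when 36 h SE replicate 3 was the only 36 h SE library (Ttr -1.44, Otx2 -2.78, Clic6 -0.31, median of the list -0.74) and for Otx2 with the score as a covariate (-0.95). Vim and C4b, whose difference was close to 0, turned negative without single libraries, with ranges from -0.014 to 0.31 (Vim, at -0.000323 without 36 h SE replicate 1 and at its lowest without 8 h SE replicate 2) and from -0.0077 to 0.36 (C4b, lowest without 8 h SE replicate 2), at -0.11 and -0.086 without 8 h SE replicate 2 and 8 h control replicate 1, and at -0.039 for Vim without that control and the length trend. Among named genes and their alternatives, 2011 values kept their side of the threshold, 507 passed only in the alternative, 98 no longer passed and 10 turned sign.

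The precision is limited by 2 SE mice at 8 h, by a lowest total of 8503816 counts in 8 h SE replicate 1, and by controls of 8 h from 2 batches.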
